A study of Mus musculus with 12 samples.

Results

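The 40 genes described here encode the extracellular matrix of the liver, the enzymes and inhibitors that remodel it, and markers of the hepatic stellate cell. They were chosen by name, and the probe sets by the array's gene symbol, counting only probe sets with 1 symbol. Of the 40, 39 had at least 1 such probe set, 78 probe sets in all, among 12393 genes on 22626 tested probe sets. Fbn1 had none and was not analysed here. The livers came from males of the FVB strain background: 6 Pctp-/- mice, which lack Pctp, and 6 wild-type littermates. All 12 mice ate a diet with 0.2% fenofibrate, an activator of the nuclear receptor PPARα, for 7 days from 8 weeks of age, and were killed at 9 weeks. Pctp encodes phosphatidylcholine transfer protein (PC-TP), and the series asks what this protein does in the response to PPARα. Each liver was measured on its own Affymetrix array. No group on a diet without the drug was analysed here, and the cells in which Pctp is lost are not restricted by any promoter named in the labels.

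The liver's matrix is sparse compared with that of skin or tendon. Stellate cells lie between hepatocytes and sinusoidal endothelium, store vitamin A as retinyl esters, and after injury can turn into contractile cells that lay down fibrillar collagen. Portal fibroblasts, endothelial cells and hepatocytes also make matrix proteins, so these genes do not mark 1 cell type. In whole liver, fewer cells of a type and less RNA per cell cannot be told apart.

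The arrays had median intensities from 84.0 to 91.2 and correlated with each other at 0.985 to 0.994 on the log2 scale. Pctp read 66.5 to 99.7 in the knockout livers and 2737 to 2954 in the wild-type livers by its brighter probe set. Control probe sets that compare the 5′ with the 3′ end of a transcript, a measure of RNA integrity, differed by genotype. That of beta-actin, on the log2 scale, averaged -1.19 ± 0.0846 in knockout livers and -1.58 ± 0.134 in wild-type livers (SD, n = 6 livers each; two-sided exact permutation p = 0.00216, adjusted over 4 transcripts 0.00289), without overlap. The ratio was also higher in knockout by 0.11 for Gapdh and 0.33 for pyruvate carboxylase (the same exact p), and for transferrin receptor the difference was 0.07 (exact p = 0.652). RNA integrity and genotype therefore cannot be told apart in any difference below. The tests compare 6 animals with 6, and the number of arrays limits the precision.

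Each gene is given by its brightest probe set, by mean intensity, unless another is named. Intensities are in the authors' linear units, and differences are knockout minus wild type on the log2(intensity + 16) scale, which understates changes of dim genes. Folds are on the same scale. Tests are limma's, the p-values are adjusted by Benjamini-Hochberg over the 22626 probe sets, and a gene passed at an adjusted p under 0.05. Of the 39 genes, 6 rose (15.4%) and 1 fell (2.56%), where 6.44% of all genes rose and 5.21% fell. The risen genes were Lamc1, Ecm1, Reln, Dcn, Mmp14 and Timp3, and the gene that fell was Col4a1. At an unadjusted p under 0.05 were 16 of the 39, where 26.3% of all tested probe sets were. With quantile normalization or median centring 4 of the 39 rose and 1 fell. Over all probe sets rises made up 57.0% of the calls, 49.2% with quantile normalization and 44.0% with median centring. The other 32 genes did not pass, among them both chains of type I collagen and Col3a1. The median difference over the 39 genes was 0.07, against 0.01 over all genes. Above 0 lay 25 of the 39, and 6720 of all 12393 genes. None of the 39 changed by 1.5-fold, and the largest difference was that of Col4a1. The groups did not overlap for 4 of the 39 (10.3%), all higher in knockout, where 6.78% of all genes had groups without overlap and 3.67% lay higher in this way.

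**Figure D1:**
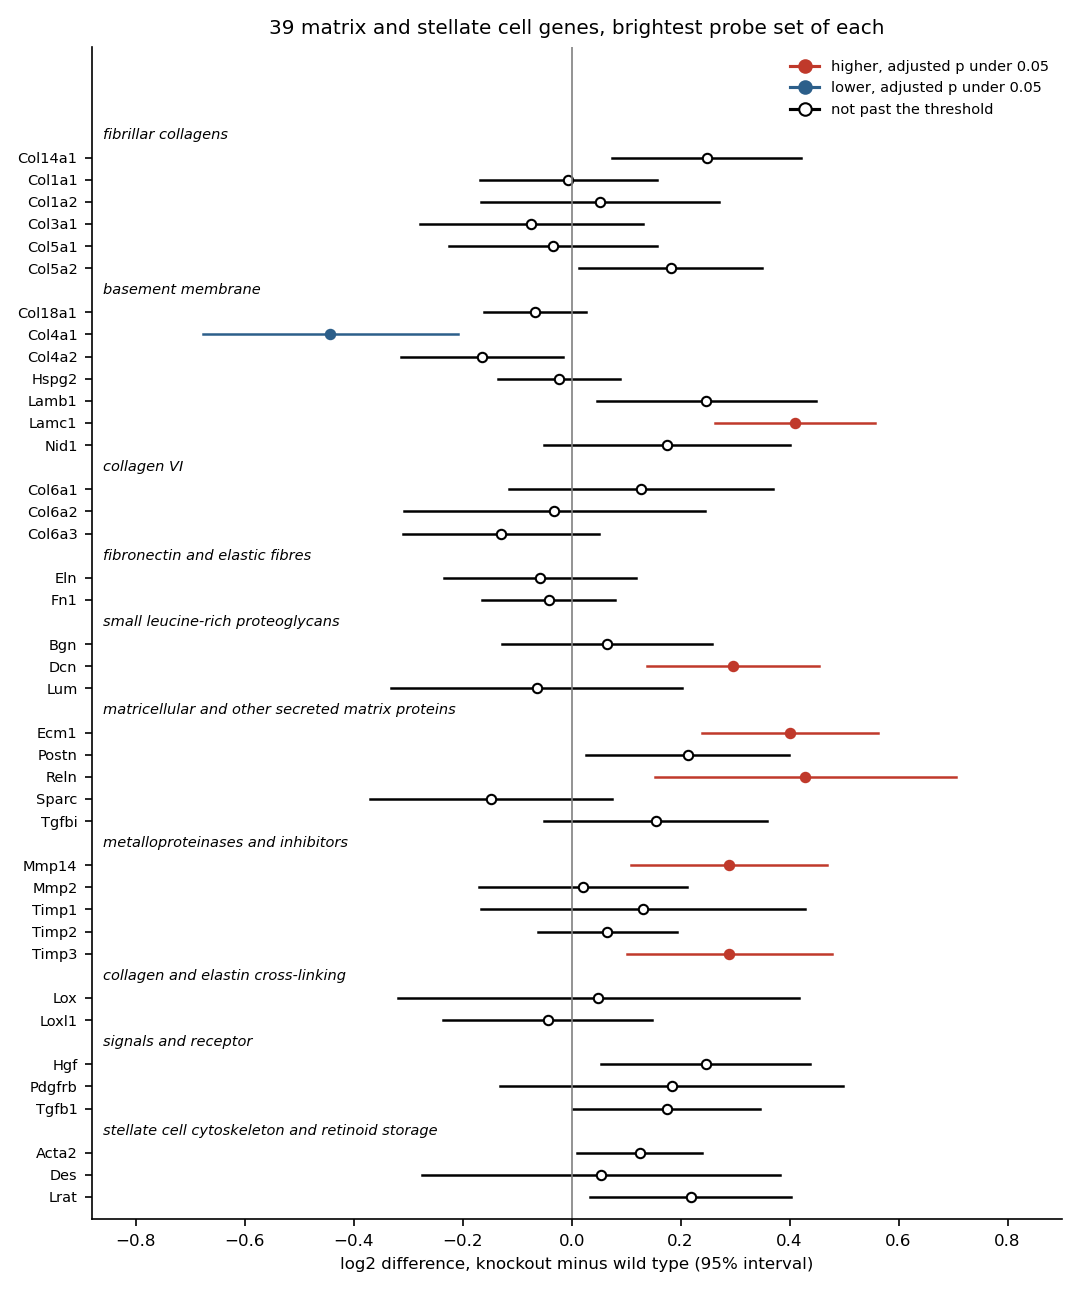
Log2 difference, knockout minus wild type, with its 95% interval for each of the 39 genes (x axis), in role groups (y axis). Filled points passed the threshold, 6 higher and 1 lower. The intervals of Col1a1, Col1a2 and Col3a1 span 0.

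Ecm1 and Reln are secreted glycoproteins, and both rose. Ecm1, extracellular matrix protein 1, is known in mouse liver as a protein that keeps TGF-β in its latent form. Its lowest, median and highest intensities were 308, 318 and 366 in knockout livers and 202, 254 and 274 in wild-type livers. Every knockout liver lay above every wild-type liver, and the difference was 0.40 (SE 0.0743, adjusted p = 0.00518, limma), a 1.32-fold rise. The authors' deposited table lists Ecm1 with a fold of 1.34, an unadjusted p of 0.000987 and a present call on 100% of the arrays of each group; the ratio of the linear group means was also 1.34. Omitting any 1 array did not end the Ecm1 call (adjusted p from 0.00642 to 0.0139).

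Reln encodes reelin, best known from the brain, which stellate cells make in the liver. Its intensities were 324, 357 and 377 (lowest, median, highest) in knockout and 170.5, 288 and 310.3 in wild-type livers. The groups did not overlap, and the wild-type livers were spread more widely, with an SD of 58.5 against 19.9. Reln rose 1.35-fold, with a difference of 0.43 (SE 0.128, adjusted p = 0.0463, limma). The call was lost after quantile normalization (adjusted p = 0.0731) and median centring (0.0708), with 1 added in place of 16 (0.0644), and on leaving out any 1 of the 6 knockout arrays or wild-type replicate 5 or 6 (adjusted p up to 0.0961).

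The promoter windows of these 2 genes, shown because both genes rose without overlap while their start regions differ, run from 250 bases before to 50 bases after the start of transcription (RefSeq, GRCm38.p6). Short motifs were searched on both strands over all 32851 windows of RefSeq: the GC box GGGCGG (in 35.7% of windows), the TATA box TATAAA (13.6%), the CCAAT box CCAAT (37.4%), the AP-1 motif TGANTCA (7.81%) and the SMAD motif CAGACA (21.0%). Capitals mark GC box, TATA box and AP-1 matches. The Ecm1 window (chr3:95739520-95739819, minus strand) and the Reln window (chr5:22344656-22344955, minus strand) read:
Ecm1: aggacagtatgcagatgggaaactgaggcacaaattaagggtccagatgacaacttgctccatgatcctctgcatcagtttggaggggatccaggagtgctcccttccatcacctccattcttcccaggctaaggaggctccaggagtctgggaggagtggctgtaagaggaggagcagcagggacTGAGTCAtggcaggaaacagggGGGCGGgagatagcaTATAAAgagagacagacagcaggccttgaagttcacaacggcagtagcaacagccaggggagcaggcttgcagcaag
Reln: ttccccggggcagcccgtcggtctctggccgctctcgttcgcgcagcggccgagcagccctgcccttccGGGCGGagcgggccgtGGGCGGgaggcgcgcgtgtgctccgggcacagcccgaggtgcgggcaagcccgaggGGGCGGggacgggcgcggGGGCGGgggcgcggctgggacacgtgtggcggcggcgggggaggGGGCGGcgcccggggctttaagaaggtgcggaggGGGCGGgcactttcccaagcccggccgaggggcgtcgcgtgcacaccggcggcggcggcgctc
The Ecm1 window holds 1 GC box 42 bases before the start, 1 TATA box 27 bases before it, 1 AP-1 match 64 bases before it and 1 SMAD match 15 bases before it. The Reln window holds 6 GC boxes and none of the other 4 motifs. The windows of Mmp14 and Timp3, which also rose, hold 2 GC boxes each and no TATA box, AP-1 or SMAD match, and that of Mmp14 also holds 2 CCAAT boxes. A match is a run of letters, and no binding was measured here.

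The other secreted matrix proteins of this group did not pass. Postn, which encodes the matricellular protein periostin, read 113 ± 15.8 in knockout livers and 94.6 ± 10.1 in wild-type livers (SD, n = 6 livers each), a difference of 0.21 (adjusted p = 0.134, limma). Sparc, a collagen-binding glycoprotein, was at -0.15 (adjusted p = 0.399) and its other probe set at -0.06. Tgfbi, a TGF-β-induced protein that binds integrins and collagen, had 4 probe sets, all above 0. The dimmest of them passed, from 107 ± 20.5 to 145 ± 19.5 (SD, n = 6 livers each, difference 0.40, SE 0.118, adjusted p = 0.0439, limma), while the other 3 lay between 0.15 and 0.18 and did not pass. That call was lost on leaving out knockout replicate 1, 2, 3 or 6 or wild-type replicate 2, 3, 4 or 6 (adjusted p up to 0.0919) and with 1 added in place of 16 (0.0608).

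**Figure D2:**
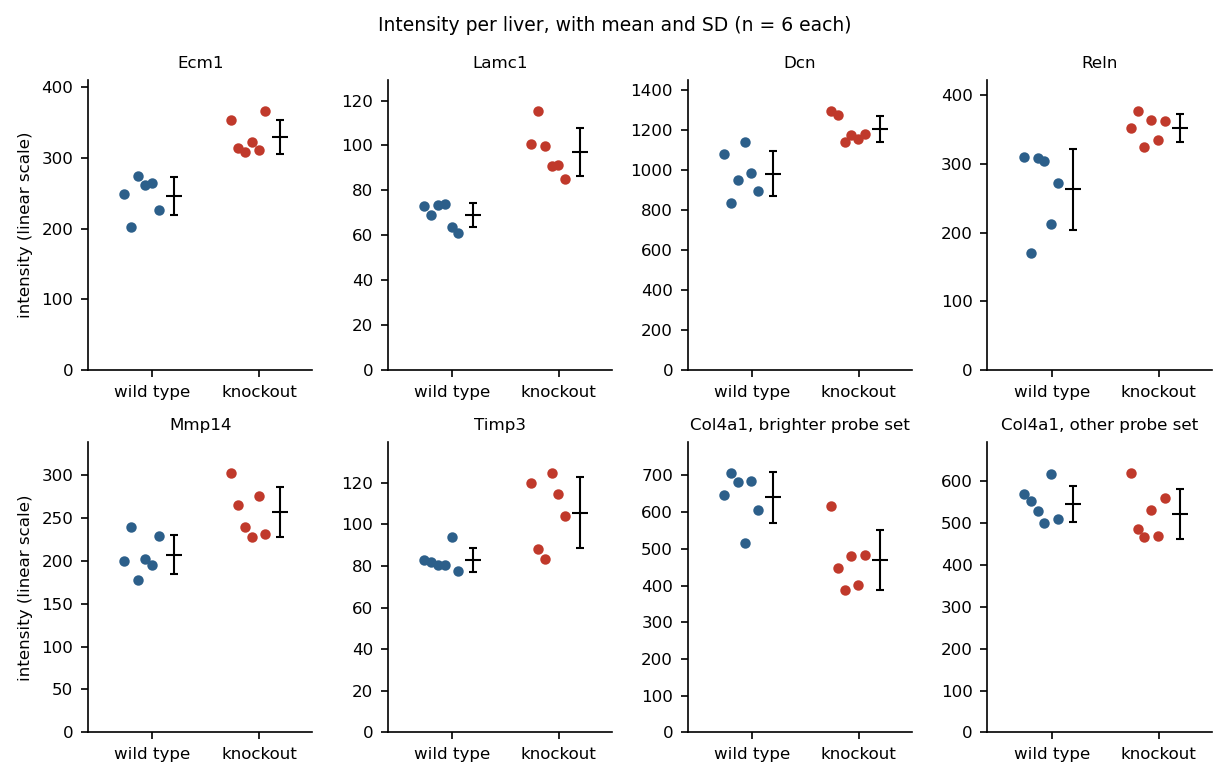
Intensity (y axis, linear scale from 0) in each of the 6 wild-type and 6 knockout livers for the 7 genes past the threshold, with both probe sets of Col4a1. Bars give the mean and SD. The groups do not overlap for Ecm1, Lamc1, Dcn and Reln, and overlap for Mmp14, Timp3 and both Col4a1 probe sets.

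Basement membranes are thin sheets built from type IV collagen, laminins, nidogen and perlecan. In this group of 7 genes Lamc1 rose, Col4a1 fell and 5 did not pass. Lamc1 encodes the γ1 chain, which is shared by most laminin trimers. It read 85.0, 95.5 and 115 (lowest, median, highest) in knockout and 61.2, 71.0 and 73.9 in wild-type livers, without overlap. The difference was 0.41 (SE 0.0676, adjusted p = 0.00303, limma), or 1.33-fold, and every omission of 1 array left the call in place (adjusted p from 0.003 to 0.00856). The authors' deposited table gives Lamc1 a fold of 1.4 with an unadjusted p of 0.002175, and the ratio of the linear group means was 1.41. The dimmer Lamc1 probe set was at 0.15 (adjusted p = 0.299) and did not pass.

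Lamb1, the β1 chain that pairs with γ1 in laminins, was dim. Its brightest probe set read 30.4, 35.0 and 45.2 (lowest, median, highest) in knockout and 21.3, 30.2 and 32.9 in wild-type livers, a difference of 0.25 that did not pass (adjusted p = 0.107, limma). Its second probe set passed at 0.41 (SE 0.107, adjusted p = 0.0253, limma), from 17.2 ± 3.44 to 28.4 ± 7.15 (SD, n = 6 livers each), and the dimmest was at 0.03. The call of the second was lost without knockout replicate 5 or wild-type replicate 3 or 6 (adjusted p up to 0.0563). The mean of the 3 Lamb1 probe sets passed (adjusted p = 0.0126). Nid1, which encodes nidogen-1, a link between laminin and type IV collagen, was at 0.17 and 0.26 by its 2 probe sets, with adjusted p of 0.322 and 0.0971. Hspg2, which encodes the proteoglycan perlecan, was at -0.02 and -0.22 (adjusted p = 0.832 and 0.113).

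Col4a1 encodes the α1 chain of type IV collagen, whose usual trimers join α1 chains with the α2 chain encoded by Col4a2. Its brighter probe set read 388, 464 and 618 (lowest, median, highest) in knockout and 516, 664 and 706 in wild-type livers. The groups overlapped through knockout replicate 1, the highest of its group. The fall was 1.36-fold, or -0.44 (SE 0.108, adjusted p = 0.0194, limma), and no omission of 1 array ended it (adjusted p up to 0.0435). The second Col4a1 probe set, almost as bright, was at -0.07 (adjusted p = 0.633), with 522 ± 60.3 in knockout livers and 546 ± 43.1 in wild-type livers (SD, n = 6 livers each). The mean of both was at -0.26 and did not pass (adjusted p = 0.0856).

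Col4a2 was at -0.16 (95% interval -0.31 to -0.02, adjusted p = 0.147, limma), with intensities of 375, 422 and 452 (lowest, median, highest) in knockout and 429, 461 and 547 in wild-type livers. Col4a1 and Col4a2 are neighbours on chromosome 8 that run in opposite directions from a common start region. Their promoter windows, shown because the pair shares this region while 1 of the genes passed the test, are chr8:11312777-11313076 on the minus strand and chr8:11312555-11312854 on the plus strand (RefSeq, GRCm38.p6). Capitals mark the 78 bases that both windows cover, each read on its gene's own strand:
Col4a1: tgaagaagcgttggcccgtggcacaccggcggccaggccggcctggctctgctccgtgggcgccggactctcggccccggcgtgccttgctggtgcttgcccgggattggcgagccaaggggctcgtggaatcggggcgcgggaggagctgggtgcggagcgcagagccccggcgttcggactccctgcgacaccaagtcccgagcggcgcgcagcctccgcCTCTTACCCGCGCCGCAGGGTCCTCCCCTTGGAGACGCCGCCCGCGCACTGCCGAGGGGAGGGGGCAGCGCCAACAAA
Col4a2: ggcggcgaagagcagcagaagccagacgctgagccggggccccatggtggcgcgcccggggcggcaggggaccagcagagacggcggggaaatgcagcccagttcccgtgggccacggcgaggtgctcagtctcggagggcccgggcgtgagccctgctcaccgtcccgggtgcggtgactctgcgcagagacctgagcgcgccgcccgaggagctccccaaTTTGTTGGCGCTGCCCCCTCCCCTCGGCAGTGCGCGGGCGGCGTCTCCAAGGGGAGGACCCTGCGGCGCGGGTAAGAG
The Col4a1 window holds 1 GC box and 1 CCAAT box and the Col4a2 window 3 GC boxes and 1 CCAAT box, and neither holds a TATA box, AP-1 or SMAD match. Col18a1, whose protein carries the endostatin domain and which hepatocytes also make, was at -0.07 and -0.14 by its 2 probe sets (adjusted p = 0.357 and 0.13).

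Fibrillar collagens form the scar in fibrosis. The group of 6 genes also counts Col14a1, whose collagen lies on the surface of fibrils. None of the 6 passed by its brightest probe set. The differences ran from -0.07 for Col3a1 to 0.18 for Col5a2 and 0.25 for Col14a1. Col1a1, the main chain of type I collagen, read 138, 170.1 and 188 (lowest, median, highest) in knockout and 158, 165 and 173 in wild-type livers. The wild-type livers were the tighter group, with an SD of 4.94 against 22.4, and the difference was -0.01 (95% interval -0.17 to 0.16). Col1a2, its partner chain, was at 0.05 (95% interval -0.17 to 0.27), and its dimmer probe set at -0.15. Col3a1, the type III chain, read 703 ± 106 in knockout livers and 737 ± 69.4 in wild-type livers (SD, n = 6 livers each, 95% interval -0.28 to 0.13).

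Type V collagen, which regulates fibril diameter, was measured by Col5a1 at -0.03 and Col5a2 at 0.18 (adjusted p = 0.855 and 0.154). The dimmer Col5a2 probe set went the other way, at -0.12 (adjusted p = 0.554), and the dimmer ones of Col5a1 were at 0.10 and 0.09. Col14a1 encodes a collagen on the fibril surface. Its brighter probe set read 266, 326 and 357 (lowest, median, highest) in knockout and 235, 262 and 280.2 in wild-type livers, and its adjusted p of 0.0633 missed the threshold. The dimmer probe set passed with nearly the same difference, 0.25 (SE 0.0748, adjusted p = 0.0463, limma). This call was lost on leaving out any 1 array but knockout replicate 2 and wild-type replicate 5 (adjusted p up to 0.0895), with 1 added in place of 16 (0.0563), and after quantile normalization or median centring (0.0826 and 0.0858). The brighter probe set in turn passed with 64 added in place of 16, with a filter on dim probe sets, with a trended variance and as the mean with the dimmer one (adjusted p from 0.00476 to 0.0452).

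In collagen VI, a microfibrillar collagen around cells, Col6a1 was at 0.13, Col6a2 at -0.03 and Col6a3 at -0.13, and none passed. Fn1, which encodes fibronectin and is made in quantity by hepatocytes, was at -0.04 (95% interval -0.16 to 0.08), with 2929.6 ± 230 in knockout livers and 3012 ± 128 in wild-type livers (SD, n = 6 livers each). Its dimmer probe set was at -0.33 (adjusted p = 0.323). Eln, which encodes elastin, was at -0.06. The cross-linking enzymes Lox and Loxl1 were at 0.05 and -0.04, at mean intensities under 50. Lox had the widest spread within the knockout group, with an SD of 0.28 on the log2 scale.

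Decorin, lumican and biglycan are small leucine-rich proteoglycans, which bind collagen fibrils, and decorin and biglycan also bind TGF-β. Dcn rose, with intensities of 1139, 1179 and 1294 (lowest, median, highest) in knockout and 837, 968 and 1138 in wild-type livers. The lowest knockout liver lay just above the highest wild-type liver, at 1139 against 1138. The difference was 0.30 (SE 0.0729, adjusted p = 0.0204, limma), or 1.23-fold, and the call held on each omission of 1 array (adjusted p up to 0.0472). Lum, the next protein-coding gene beside Dcn on chromosome 10, was at -0.06 (95% interval -0.33 to 0.20). Bgn had 3 probe sets, at 0.07, 0.10 and 0.03, and none passed.

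Metalloproteinases cut matrix proteins, and the TIMP proteins inhibit them. All 5 genes of this group lay above 0, and Mmp14 and Timp3 rose. Mmp14 encodes a membrane-bound collagenase that also activates the product of Mmp2. It read 228, 252 and 302 (lowest, median, highest) in knockout and 178, 201 and 239.7 in wild-type livers, with overlap, a 1.22-fold rise (difference 0.29, SE 0.0834, adjusted p = 0.0403, limma). Its dimmer probe set was at 0.33 (adjusted p = 0.111). The Mmp14 call was lost with 1 added in place of 16 (adjusted p = 0.0526), for the mean of both probe sets (0.0617), and on leaving out knockout replicate 1, 2, 3 or 5 or wild-type replicate 1, 3, 4 or 5 (adjusted p up to 0.0824). Mmp2, which encodes gelatinase A, was at 0.02, and just below 0 after quantile normalization or median centring.

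Timp3 encodes an inhibitor that stays bound to the matrix. It read 83.6, 109 and 125 (lowest, median, highest) in knockout and 77.6, 81.2 and 93.8 in wild-type livers. The knockout livers were spread widely and overlapped the wild-type group, whose highest value, in replicate 5, stood apart from the other 5. Timp3 rose 1.22-fold (difference 0.29, SE 0.0867, adjusted p = 0.047, limma). The second probe set was at 0.24 (adjusted p = 0.0614), and the 2 dimmest at -0.11 and 0.09. The Timp3 call was lost after quantile normalization (adjusted p = 0.0695) and median centring (0.0672), with 1 added in place of 16 (0.0579), and for the mean of its 4 probe sets, which was at 0.13 (adjusted p = 0.289). Leaving out 1 array ended it for knockout replicates 1, 4, 5 and 6 and wild-type replicates 1, 2, 3, 4 and 6 (adjusted p up to 0.0978).

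Timp2, an inhibitor that also helps Mmp14 activate gelatinase A, had 6 probe sets that went both ways. The brightest read 243 ± 15 in knockout livers and 232 ± 17.9 in wild-type livers (SD, n = 6 livers each) and did not pass (difference 0.07, adjusted p = 0.534, limma). The second fell, from 185 ± 16.1 to 146 ± 10.9 (difference -0.31, SE 0.0641, adjusted p = 0.00871, limma), and kept its call on each omission of 1 array. The third was at 0.19, and none of the other 4 passed. Timp1, which rises in fibrosis, was dim, at 35.7 ± 9.31 in knockout livers and 31.3 ± 9.17 in wild-type livers (SD, n = 6 livers each), a difference of 0.13 (95% interval -0.17 to 0.43).

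**Figure D3:**
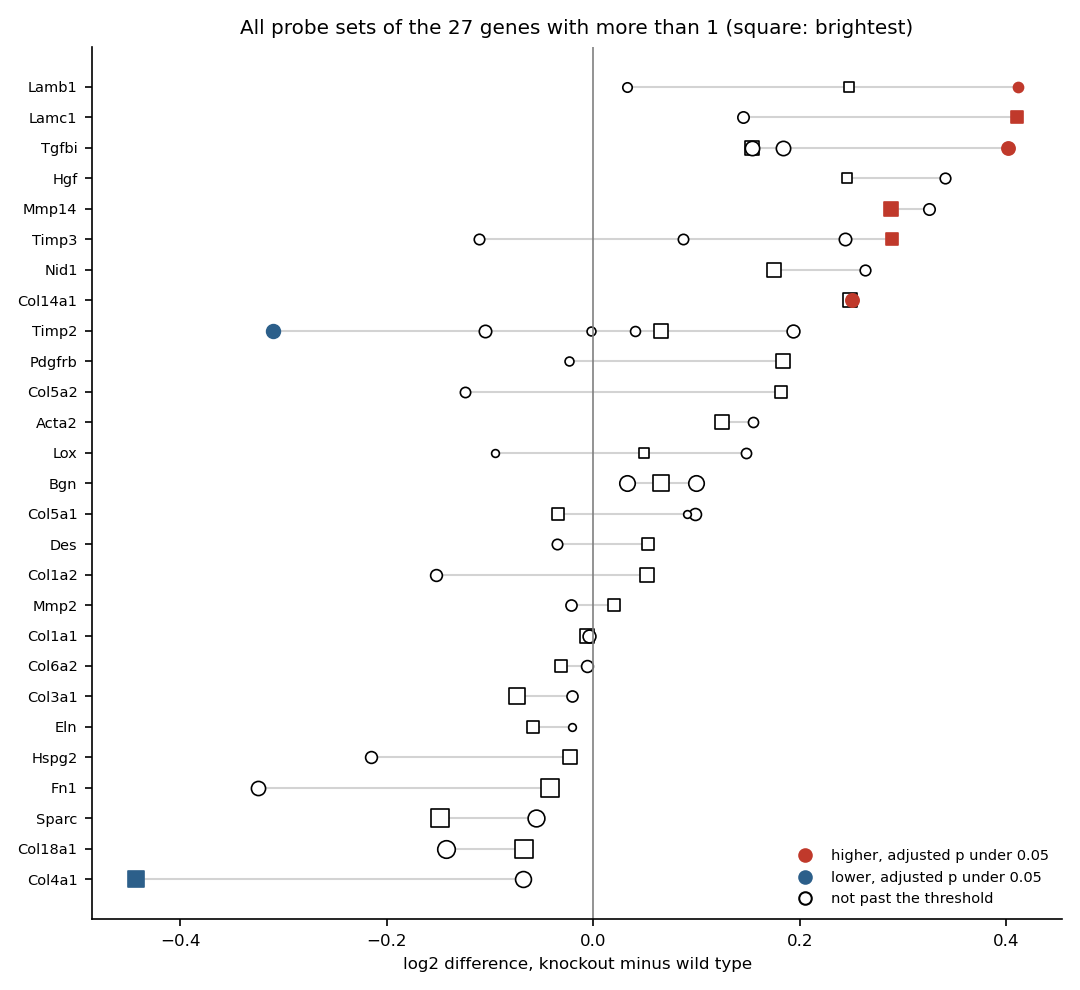
Log2 difference, knockout minus wild type (x axis), of every probe set of the 27 genes with more than 1 (y axis). Squares mark the brightest probe set, larger symbols a higher mean, and filled symbols those past the threshold. The falls of 1 probe set each of Timp2 (-0.31) and Col4a1 (-0.44) stand beside probe sets of the same genes at 0.07 and -0.07.

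Over all 78 probe sets 9 rose and 2 fell, where 6.82% of all tested probe sets rose and 5.15% fell. Of the 27 genes with several probe sets, 18 had all of them on the same side of 0. For all 27 the log2 difference between the brightest and the second brightest probe set was compared between genotypes by two-sided exact permutation tests, a comparison added after the values were seen. The adjusted p over the 27 genes passed for 3, and the unadjusted p was under 0.05 for 6. For Col4a1 the difference of the brightest probe set was below that of the second, by -0.37 (exact p = 0.00216, the smallest the design allows, adjusted 0.0292). For Timp2 it was above by 0.38 (the same exact and adjusted p), and for Col1a2, neither of whose probe sets passed on its own, by 0.20 (exact p = 0.00433, adjusted 0.039). For Lamc1 the value was 0.26 (exact p = 0.0303, adjusted 0.164). The places of the probes in the transcripts were not used here.

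Of the signals to stellate cells, Tgfb1 encodes the main fibrogenic cytokine, Pdgfrb a receptor for a growth factor that makes stellate cells divide, and Hgf a growth factor for hepatocytes that stellate cells secrete. None passed, and all 3 lay above 0. Hgf, a dim gene, read 31.0, 38.8 and 44.0 (lowest, median, highest) in knockout and 21.4, 32.1 and 35.8 in wild-type livers (difference 0.25, adjusted p = 0.0925, limma), and its other probe set was at 0.34 (adjusted p = 0.0643). The mean of its 2 probe sets passed. Tgfb1 was at 0.17 (adjusted p = 0.184) and Pdgfrb at 0.18 (adjusted p = 0.472). The dimmer Pdgfrb probe set, with means of 9.86 in knockout and 10.5 in wild type, was at -0.02 (adjusted p = 0.932).

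The 3 genes of the stellate cell's own machinery did not pass either. Lrat, whose enzyme makes the stored retinyl esters, read 101 ± 10.2 in knockout livers and 85.0 ± 12.2 in wild-type livers (SD, n = 6 livers each), a difference of 0.22 (95% interval 0.03 to 0.40, adjusted p = 0.119, limma). Acta2, the smooth muscle actin of activated stellate cells and vessel walls, was at 0.12 (95% interval 0.01 to 0.24, adjusted p = 0.151). Des, which encodes the intermediate filament desmin, read 80.6, 88.9 and 95.7 (lowest, median, highest) in knockout and 47.6, 92.5 and 117 in wild-type livers. It had the widest spread of all 39 genes within the wild-type group, with an SD of 0.40 on the log2 scale, and wild-type replicate 6 was its lowest liver.

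**Figure D4:**
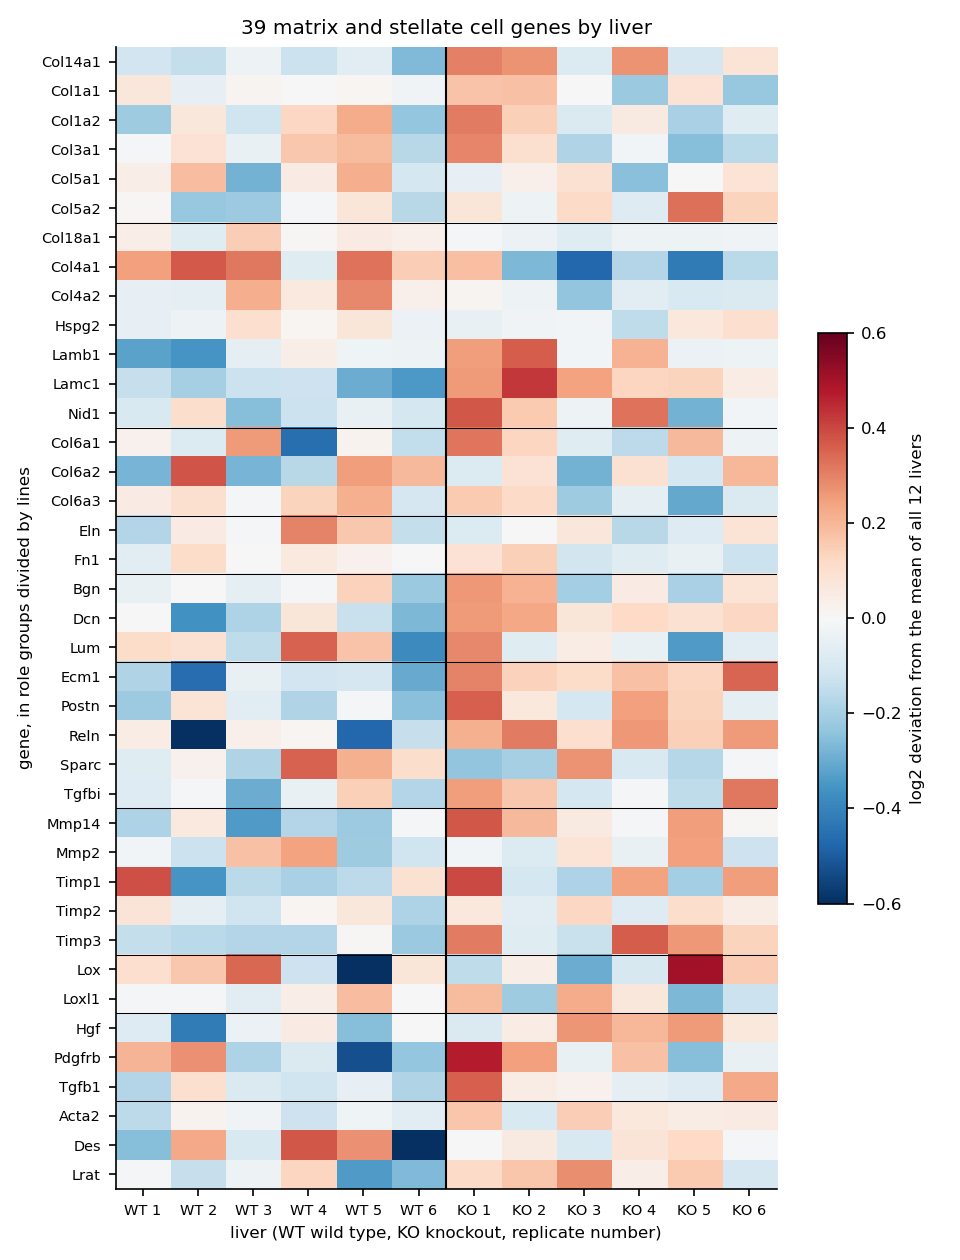
Log2 deviation from the mean of all 12 livers (colour) for the 39 genes (rows, in role groups) in each liver (columns). Knockout replicate 1 is the highest liver for 13 of the 39 genes and wild-type replicate 6 the lowest for 10.

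The genes varied by liver as well as by genotype. Knockout replicate 1 was the highest of the 12 livers for 13 of the 39 genes, with a median deviation of 0.19, against 0.02 over all genes. Wild-type replicate 6 was the lowest for 10, with a median deviation of -0.14, against -0.01 over all genes. Leaving out these 2 livers was an alternative chosen after the values were seen. They were picked from the values of these genes, so their omission tends to shrink rises, and it also leaves fewer arrays. Over all probe sets 796 rose without them, against 1543 with all arrays. Calls lost in this setting cannot be read apart from that choice. Without these 2 livers, 2 genes rose, Ecm1 and Lamc1, and Col4a1 fell. Dcn was then at 0.25 (adjusted p = 0.0918), Reln at 0.44 (0.112), Mmp14 at 0.27 (0.0778) and Timp3 at 0.24 (0.169), and none of these 4 passed. The dimmer probe sets of Lamb1 (0.0822), Col14a1 (0.0679) and Tgfbi (0.125) did not pass either, and that of Timp2 did. Within a group the SD of a gene on the log2 scale had a median of 0.17 over the genes in knockout and 0.15 in wild type.

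Collagen chains are modified and folded in the endoplasmic reticulum before secretion. Set beside the 40 were 13 other measured genes of collagen folding, modification and processing, not all of them of this step. Of the 13, 5 fell (38.5%, where 5.21% of all genes fell) and 1 rose. Like the other lists, this one was chosen with earlier results of these data known, and its share was not tested. Without knockout replicate 1 and wild-type replicate 6, Plod1 (adjusted p = 0.0583), Serpinh1 (0.074) and P3h1 (0.0595) did not pass, and P4ha2, Crtap and Ppib did. Plod1, a lysyl hydroxylase, fell 1.29-fold, from 237 ± 29.2 to 179 ± 16.5 (SD, n = 6 livers each, adjusted p = 0.0113, limma), without overlap. P4ha2, a subunit of prolyl 4-hydroxylase, fell 1.2-fold (adjusted p = 0.0122), also without overlap. Serpinh1, which encodes the collagen chaperone HSP47, fell 1.26-fold (adjusted p = 0.0385), with overlap, and its call was lost on leaving out any 1 array but wild-type replicate 2 (adjusted p up to 0.0792) and with 1 added in place of 16 (0.0514).

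The remaining 3 encode a complex that hydroxylates prolines at position 3, and they went in opposite directions. P3h1, the hydroxylase, rose 1.31-fold, with 148, 173 and 215 (lowest, median, highest) in knockout and 107, 141 and 149.5 in wild-type livers (adjusted p = 0.0255, limma). Crtap, its partner, fell 1.17-fold (adjusted p = 0.0337), and Ppib, which encodes cyclophilin B, fell 1.16-fold, from 2562 ± 154 to 2204 ± 50.8 (SD, n = 6 livers each, adjusted p = 0.0115). The P3h1 call was lost without knockout replicate 2 or 3 or wild-type replicate 4 or 6 (adjusted p up to 0.0547). The Crtap call was lost without knockout replicate 2, 3, 4, 5 or 6 or wild-type replicate 2, 3, 5 or 6 (adjusted p up to 0.0698) and with array weights (0.0504).

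**Figure D5:**
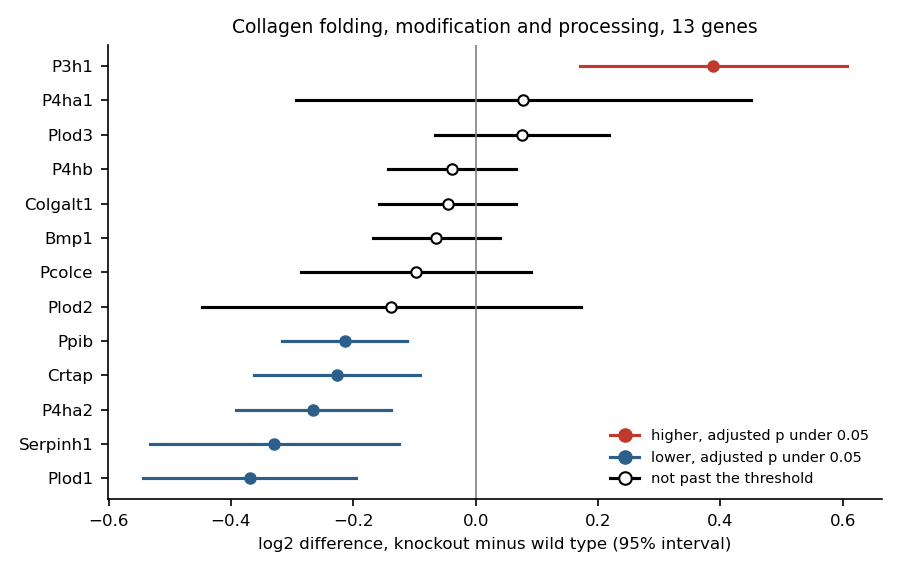
Log2 difference, knockout minus wild type, with its 95% interval (x axis) for 13 genes of collagen folding, modification and processing (y axis). Filled points passed the threshold. Plod1, Serpinh1, P4ha2, Crtap and Ppib lie below 0 and P3h1 above.

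Among the other lists, 0 of 11 further collagens passed by limma. At an unadjusted p under 0.05 were 3 of the 11, and 3242 of all 12393 genes. Over all genes 6.44% rose and 5.21% fell. Of 17 genes of TGF-β signalling 2 rose (11.8%) and none fell. The 2 were the ligand gene Tgfb2 (1.24-fold, adjusted p = 0.0103, limma) and the signal transducer Smad2 (1.25-fold, adjusted p = 0.0115). The mean of all Tgfb2 probe sets was at 0.00 (adjusted p = 0.992). Of 15 matrix receptors 1 rose and 1 fell (6.67% each). Itga8, an integrin subunit of stellate and smooth muscle cells, rose 1.41-fold from 20.2 ± 4.03 to 35.2 ± 7.84 (SD, n = 6 livers each, adjusted p = 0.012, limma). Sdc4, a cell-surface proteoglycan, fell 1.79-fold from 1085 ± 173 to 602 ± 112 (SD, n = 6 livers each, adjusted p = 0.00218), without overlap. Of 13 other proteases and inhibitors 2 rose (15.4%), Plat by 1.28-fold and Adamts1 by 1.31-fold (adjusted p = 0.0323 and 0.0237, limma). Median centring ended the Plat call (adjusted p = 0.0554), as did leaving out knockout replicate 3, 4 or 5 or wild-type replicate 6, and the Adamts1 call was lost without knockout replicate 1, 2 or 4 or wild-type replicate 5 or 6 (adjusted p up to 0.0709 and 0.0536). Both were lost without knockout replicate 1 and wild-type replicate 6 (0.0904 and 0.102).

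Of the 40 genes, 12 served as markers of stellate cells and fibroblasts. Of these, Dcn, Ecm1 and Reln rose (25.0%, where 6.44% of all genes rose) and none fell, with a median of 0.15. Without knockout replicate 1 and wild-type replicate 6, Ecm1 passed, and Dcn and Reln did not (adjusted p = 0.0918 and 0.112). Their summed intensity ran from 3292 to 3973 in knockout and from 2807 to 3499 in wild-type livers, with overlap. Of 13 stellate and fibroblast markers outside the 40, Gucy1b1, a guanylate cyclase subunit, rose 1.33-fold (adjusted p = 0.00654, limma), Pdgfra 1.25-fold (adjusted p = 0.0186) and the pericyte gene Rgs5 1.16-fold (adjusted p = 0.0218), and none fell. These 3 make up 23.1% of the 13, whose median was 0.06, with 8 above 0 and 5 below. The Rgs5 call was lost without wild-type replicate 6 (adjusted p = 0.0503), and without both that liver and knockout replicate 1 neither Rgs5 (0.0967) nor Pdgfra (0.0602) passed. Their sums ran from 3319 to 3803 in knockout and 3028 to 3602 in wild type. The dimmest of the 13, Hand2, had a mean of 3.5 and read 1 in its lowest liver of each group. As 1 is also the lowest mean over all genes, its presence cannot be judged.

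Other cells of the liver make some of these proteins too. Of 13 endothelial markers 2 rose (15.4%, where 6.44% of all genes rose) and 1 fell (7.69%, where 5.21% of all genes fell). Fcgr2b, an antibody receptor of sinusoidal endothelium, rose 1.43-fold (adjusted p = 0.000489, limma) and Egfl7 1.17-fold (adjusted p = 0.043). Vwf, of the endothelium of larger vessels, fell 1.33-fold (adjusted p = 0.0111). The Egfl7 call was lost with 1 added in place of 16, after quantile normalization and median centring and for the mean of its probe sets (adjusted p from 0.0532 to 0.445), and on leaving out any 1 array but knockout replicate 6 and wild-type replicate 5 (adjusted p up to 0.0908) or both knockout replicate 1 and wild-type replicate 6 (0.165). The endothelial sums ran from 3751 to 4158 in knockout and 3381 to 3972 in wild type. None of 11 Kupffer cell, 7 vascular smooth muscle, 6 bile duct and 4 mesothelial markers passed by limma. At an unadjusted p under 0.05 were 1, 0, 1 and 0 of them, and 3242 of all 12393 genes. The dimmest markers of these lists had mean intensities of 99.6 (Marco), 1.36 (Cnn1), 10.8 (Cftr) and 20.8 (Wt1). For markers near the background a missing call does not show that the cells were unchanged. The Kupffer sums ran from 4483 to 6055 and 3562 to 7892, the smooth muscle sums from 475 to 581 and 515 to 599, in knockout and wild type. The bile duct sums ran from 127 to 169 and 102 to 159, and the mesothelial sums from 90.3 to 120.0 and 106 to 174. Of 8 hepatocyte markers 1 rose (12.5%), the regulator Hnf4a, by 1.25-fold (adjusted p = 0.0192, limma). Without knockout replicate 1 and wild-type replicate 6 its adjusted p was 0.0622. The hepatocyte sums ran from 57003 to 59211 and 56151 to 59649. All these sums overlapped between the groups. A sum of linear intensities is set mostly by its brightest markers, so an overlap does not show that the cells were unchanged. The part of these cells in the matrix genes' differences was not tested.

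Some of the genes lie beside each other on their chromosomes, without moving together past the threshold. Besides Col4a1 with Col4a2 and Dcn with Lum, no other protein-coding gene lies between Col3a1 (-0.07) and Col5a2 (0.18) or between Col6a1 (0.13) and Col6a2 (-0.03), in the reference gene table of GRCm38.p6. In each of the 4 pairs at most 1 gene passed.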

How the data were processed

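Per the labels' protocols, total RNA of each liver was labelled as biotinylated cRNA for an Affymetrix array. The authors deposited intensity values, 1 per probe set and array, summarised and scaled on a linear scale; which program made them is not stated by the labels or headers. A second deposited table lists 727 probe sets the authors selected. Per the file headers, its columns are a signed fold, treated as a score, a p-value without adjustment, and the percent of present calls in each group; 2 of its probe sets belong to the genes described.

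The 64 control probe sets stayed out, and 22626 were tested; 20380 had 1 gene symbol, 691 several and 1555 none. Values were analysed as log2(intensity + 16) with limma 3.58.1 (lmFit, eBayes) in R 4.3.3, two-sided. Exact permutation tests used scipy 1.17.1, and figures matplotlib 3.10.9. The fit was tested on simulated data. No pair of arrays had identical values. Genes, lists and tests were chosen with earlier results of these data known. All 40 genes may be named, as may the genes past the threshold in the other lists. Ccn2 and the dimmest markers of some lists are named besides. The alternatives were other added constants (1, 64), a filter at a mean intensity of 50, median centring, quantile normalization, array weights, a robust variance with a trend, omission of each array in turn, a block for the replicate number, averaging all probe sets of a gene, and thresholds of 0.01 and 0.1.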

Additional observations from a re-analysis of the deposited data

Results flagged for a closer look

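One of 78 groups of 6 livers (39 genes in each genotype) held a value far from the others. Timp3 read 93.842 in wild-type replicate 5, where the other 5 wild-type livers lay between 77.572 and 82.951. Its gap to the nearest liver was 0.669 of the group's range, above Dixon's 95% limit for 6 values. Chance flags about 1 in 20 groups.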

How the results depend on the processing

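The number of risen genes, 6 of 39, was 3 with 1 added in place of 16, 3 with the replicate block, 2 at an adjusted p under 0.01, 2 without knockout replicate 1 and wild-type replicate 6, and from 3 to 5 when 1 array was left out. It was 7 with 64 added, with the intensity filter, with the trended variance and with all probe sets of a gene averaged, and 8 at an adjusted p under 0.1. The single fall, of Col4a1, was 1 in all 12 omissions, and 0 with the replicate block, with all probe sets of a gene averaged and at an adjusted p under 0.01. Over all probe sets, 1543 rose and 1165 fell; from 1132 to 1641 rose and from 855 to 1101 fell when 1 array was left out. With the replicate block 727 fell, and without knockout replicate 1 and wild-type replicate 6, 796 rose and 695 fell. Livers with the same number did not deviate together (correlations from -0.18 to 0.14, none the best match to its own number), so the numbers were not taken as pairs; the block ended 11 calls: those of Col4a1, Reln, Timp3, Mmp14, Serpinh1, Crtap, Ppib, Smad2, Egfl7 and the dimmer Lamb1 and Tgfbi probe sets (adjusted p from 0.0517 to 0.0997). Of the 5 falls in collagen folding and modification it left P4ha2 and Plod1.

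Genes near 0 that did not pass changed sign. For the mean of the probe sets Col1a2 was at -0.050, Col5a1 at 0.051, Timp2 at -0.020 and Mmp2 at -0.00077. Mmp2 was at -0.0067 after quantile normalization and -0.012 after median centring. Without 1 array, or without knockout replicate 1 and wild-type replicate 6, the differences ran from -0.045 to 0.039 for Col1a1, from -0.047 to 0.10 for Col1a2, from -0.095 to 0.013 for Col5a1, from -0.045 to 0.0054 for Hspg2, from -0.091 to 0.041 for Col6a2, from -0.21 to 0.00029 for Lum, from -0.018 to 0.11 for Bgn, from -0.026 to 0.070 for Mmp2, from -0.087 to 0.12 for Lox, from -0.093 to 0.0054 for Loxl1 and from -0.080 to 0.13 for Des. The cause was not tested. Of the 39 genes 6 had a mean intensity under 50, nearest to the background, and none of these passed by its brightest probe set.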
